A study of Mus musculus with 12 samples.

Results

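The glutathione system of the newborn mouse testis was examined through 10 genes of the 54532 in the deposited count table. They are the glutathione peroxidases Gpx1, Gpx3, Gpx4, Gpx7 and Gpx8, the glutathione transferases Gstm1, Gstm2 and Gsta4, and Ggt5 and Dpep1, whose products break glutathione and its conjugates down outside the cell. The genes were picked by name, as a group selected on measured values: earlier results of dexamethasone against saline in these same libraries were known. Their values in the dexamethasone comparisons are therefore given as a description. Whether a member passed the threshold of the fit over all genes is stated, but no p is given and no evidence is drawn from it.

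Mice carried the Tg(Pou5f1-EGFP)2Mnn transgene, in which regulatory sequence of Pou5f1 (OCT4) drives green fluorescent protein in germ cells, so that the sort itself rests on transgene fluorescence. Pregnant dams received dexamethasone (dex), a synthetic glucocorticoid, at 10 μg per gram of body weight by intraperitoneal injection at E17.5 and E18.5 (embryonic days). Pups received the same dose under the skin at postnatal day 0, and controls were given saline in the same way. Testes of male pups were taken at postnatal day 1 and separated by fluorescence into germ cells with the GFP signal and somatic cells without it, and testes of separately dosed litters were pooled for each replicate, per the study's methods. This gave 4 groups of 3 libraries of polyadenylated RNA, namely saline germ, dex germ, saline somatic and dex somatic, and all 4 carried the transgene and the injections.

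Glutathione is a tripeptide that cells use as their main soluble thiol reductant. Peroxidases use it to reduce hydrogen peroxide and lipid peroxides, transferases attach it to electrophilic compounds, and the oxidized form is returned to the reduced one by glutathione reductase. Outside the cell, gamma-glutamyl transferases remove its glutamate, and dipeptidases such as Dpep1 cleave the cysteinylglycine that remains. Steroid-producing and supporting cells of the testis are known to be rich in transferases, and Gpx4 has a known structural role in sperm.

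Depth ranged from 18459692 to 25178477 counts per library, and a count of 3, used here as the floor of detection, corresponded to between 0.114 and 0.160 CPM (counts scaled to library size). Lists of 7 germ cell and 7 Sertoli cell markers checked the sort. The summed germ cell markers ranged from 3074 to 3334 CPM in the 6 germ libraries and from 3.18 to 6.41 CPM in the 6 somatic libraries. The summed Sertoli cell markers ranged from 4913 to 5586 CPM in the somatic libraries and from 41.6 to 76.2 CPM in the germ libraries, and none of the 7 was at 0 in any germ library.

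The 2 populations had different leading members. Levels of different genes were compared per gene length, as deposited FPKM (fragments scaled to gene length and library size). Ggt5 has the greatest gene length of the members, 5922 bases, followed by Dpep1 with 2486 bases. FPKM levels and ratios of Ggt5 depend on that length. In saline somatic cells the mu-class transferase Gstm1 led with 1181 ± 164 FPKM (SD, n = 3), followed by its neighbour Gstm2 with 746 ± 67.7 FPKM and the alpha-class transferase Gsta4, which acts on 4-hydroxynonenal from lipid peroxidation, with 151 ± 16.9 FPKM. Among 22046 protein-coding genes Gstm1 ranked 7 and Gstm2 ranked 21 by mean FPKM in these cells. Below them came Gpx1, the cytosolic peroxidase, with 85.5 FPKM, Gpx4, which reduces lipid peroxides in membranes, with 75.2 FPKM, and Gpx8, a peroxidase of the endoplasmic reticulum, with 72.1 FPKM. The ranges of Gpx1 and Gpx4 overlapped, as did those of Gpx4 and Gpx8, so that the order of these neighbours was not resolved. Gpx7, the other peroxidase of the endoplasmic reticulum, had 50.9 FPKM, and the secreted peroxidase Gpx3 had 37.1 FPKM. Ggt5 had 7.19 FPKM and Dpep1, a membrane-bound dipeptidase, was lowest with 4.33 FPKM.

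In saline germ cells the peroxidase Gpx1 led with 95.1 ± 2.82 FPKM (SD, n = 3). Gsta4 followed with 33.5 FPKM and Gpx4 with 30.7 FPKM, and the ranges of these 2 overlapped. Gpx3 had 19.4 FPKM and Gstm1 16.9 FPKM, again with overlapping ranges. Gstm2 had 7.45 FPKM, Gpx7 2.14 FPKM and Gpx8 1.13 FPKM, and Ggt5 and Dpep1 were below 1 FPKM in every germ library. Of the FPKM summed over the 10 members, the 5 peroxidases made up 71.8% ± 2.93 in saline germ cells and 13.3% ± 0.485 in saline somatic cells (SD, n = 3). Gstm1 and Gstm2 together made up 11.7% ± 2.37 in saline germ cells and 79.9% ± 0.586 in saline somatic cells. These shares cover the members alone and depend on which transferases are among them. The mu-class Gstm5, not a member, had 98.5 FPKM in saline germ and 40.5 FPKM in saline somatic cells.

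**Figure D1:**
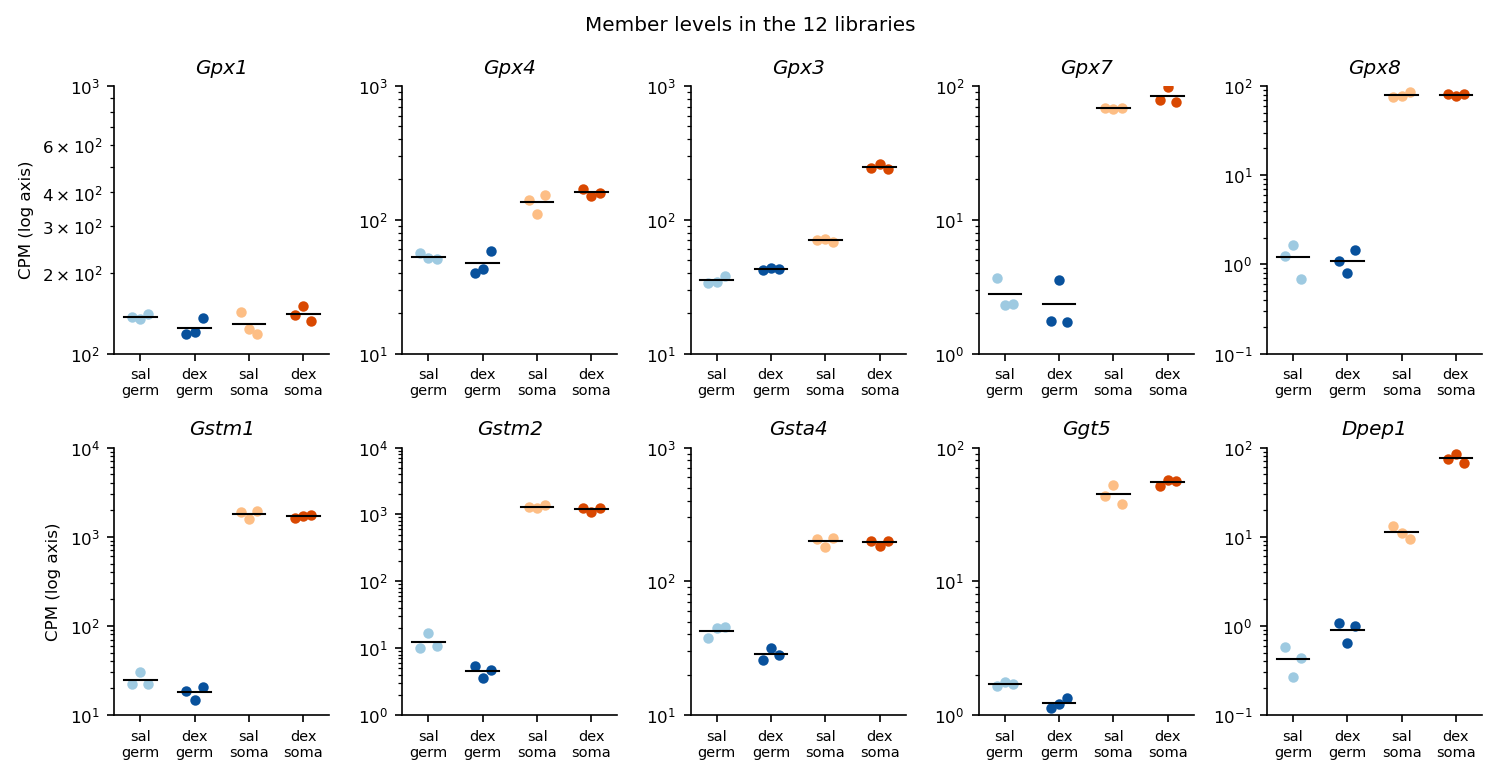
CPM of the 10 members in each library (log axis, scaled separately for each gene), with a point per library and a horizontal line at the mean of 3 libraries in saline (sal) and dex germ and somatic (soma) groups. Dpep1 and Gpx3 sat higher in the 3 dex somatic libraries than in the 3 saline somatic ones, and Gstm2 and Gsta4 sat lower in the 3 dex germ libraries than in the 3 saline germ ones.

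Germ cells were then compared with somatic cells of saline animals, gene by gene, with the quasi-likelihood test of edgeR. A gene was called at a Benjamini-Hochberg adjusted p of 0.05 or less over all genes tested. Of the 10 members 9 were called, all lower in germ cells, against a background of 76.5% of the 18870 genes tested. The median log2 fold change was -4.71 over the members and 0.07 over all genes tested. Scaling by library totals in place of TMM moved the median of all genes by 0.14, less than any called member's difference.

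Among the members, the mu-class transferases Gstm2 and Gstm1 differed most. Gstm2 had 9.89, 16.9 and 10.9 CPM in the saline germ libraries and 1294, 1229.6 and 1396 CPM in the saline somatic libraries, a log2 fold change of -6.77 ± 0.18 (SE; edgeR adjusted p = 1.84e-11). Gstm1 had 22.2, 30.3 and 22.3 CPM in germ cells and 1914, 1586 and 1937 CPM in somatic cells, a log2 fold change of -6.25 ± 0.15 (SE; edgeR adjusted p = 9.11e-12). No germ library came near a somatic one for either gene. The remaining transferase Gsta4 differed less, with 37.7, 44.4 and 45.6 CPM in germ cells against 206, 181 and 212 CPM in somatic cells, a log2 fold change of -2.29 ± 0.10 (SE; edgeR adjusted p = 1.13e-09).

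Among the peroxidases, those of the endoplasmic reticulum were nearly restricted to the somatic sort. Gpx8 had 1.25, 1.65 and 0.683 CPM in saline germ and 74.4, 76.7 and 85.5 CPM in saline somatic libraries (log2 fold change -6.11 ± 0.21, SE; edgeR adjusted p = 1.17e-10). Gpx7 had 3.65, 2.29 and 2.34 CPM in saline germ and 69.0, 67.9 and 68.5 CPM in saline somatic libraries (log2 fold change -4.68 ± 0.17, SE; edgeR adjusted p = 2.38e-10). Gpx4 was lower in germ cells by a smaller margin, with 56.4, 51.9 and 51.1 CPM against 141, 111 and 153 CPM (log2 fold change -1.41 ± 0.12, SE; edgeR adjusted p = 4.13e-07). Gpx3 had 33.8, 34.1 and 37.9 CPM in germ cells and 71.1, 71.9 and 67.9 CPM in somatic cells (log2 fold change -1.06 ± 0.098, SE; edgeR adjusted p = 8.65e-07). Gpx1 had 137, 134 and 141 CPM in germ cells and 143, 124 and 119 CPM in somatic cells, and these ranges overlapped. Its log2 fold change was 0.03 ± 0.091 (SE; edgeR adjusted p = 0.767), with a sign that depended on single libraries.

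The extracellular enzymes were low in germ cells as well. Ggt5 had 1.65, 1.76 and 1.71 CPM in saline germ and 43.1, 52.7 and 38.1 CPM in saline somatic libraries (log2 fold change -4.77 ± 0.18, SE; edgeR adjusted p = 2.97e-10). Dpep1 had 13, 5 and 9 counts in saline germ and 270, 254 and 197 counts in saline somatic libraries (log2 fold change -4.74 ± 0.33, SE; edgeR adjusted p = 7.31e-08).

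The residual somatic RNA of the germ sort was set beside these values. In saline, the germ level of Gstm2 was 0.961% of its somatic level, that of Gstm1 1.38% and that of Gpx8 1.51%. The 7 Sertoli cell markers, summed, were at 1.32%, and the 7 peritubular and stromal cell markers at 2.03%. The germ readings of Gstm1, Gstm2 and Gpx8 were thus of the size of the somatic marker readings in the same libraries. Ggt5 at 3.82%, Dpep1 at 3.81% and Gpx7 at 4.04% were above both lists but below the 5 Leydig cell markers at 6.57%. Gsta4 at 21.3%, Gpx4 at 39.4%, Gpx3 at 50.2% and Gpx1 at 107% exceeded all 3 lists. Endothelial cell markers, at 28.6%, and macrophage markers, at 21.8%, were higher. The endothelial list was mixed. Pecam1 (log2 fold change 0.60 ± 0.14, SE; edgeR adjusted p = 0.00243) and Egfl7 (0.78 ± 0.21, SE; edgeR adjusted p = 0.00423) were called higher in germ than in somatic cells. Cdh5 (-3.33 ± 0.11, SE) and Kdr (-1.34 ± 0.25, SE) were called lower, and Tek was not called. The 5 macrophage markers tested were all called lower. The part of residual somatic RNA in the germ values was not tested.

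**Figure D2:**
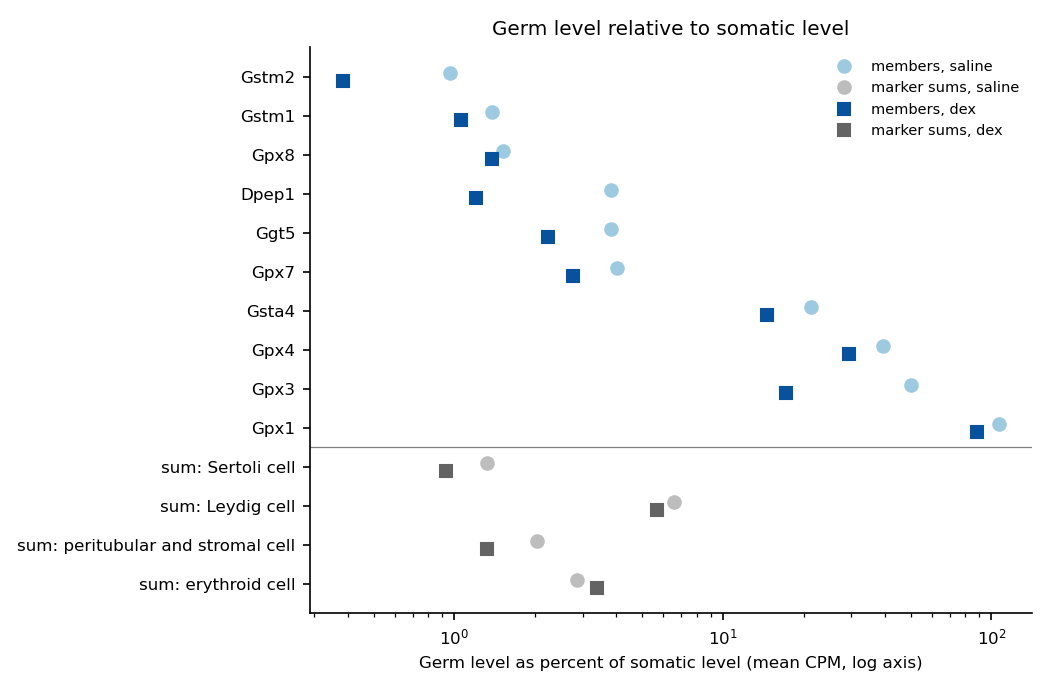
Mean CPM of germ libraries as a percentage of mean CPM of somatic libraries (log axis) in saline (circles) and dex (squares), for the 10 members in blue and for summed markers of 4 other cell types in grey. Endothelial cell markers (28.6% in saline, 26.8% in dex) and macrophage markers (21.8% in saline, 78.3% in dex) are not drawn. In saline, Gstm2, Gstm1 and Gpx8 lie between 0.961% and 1.51%, around the summed Sertoli cell markers at 1.32%, while Gpx1 lies at 107%.

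In dex animals all 10 members were called lower in germ than in somatic cells, against 76.3% of the 18778 genes tested. The call for Gpx1 was lost in 9 of 14 alternatives. Its log2 fold change of -0.25 ± 0.086 (SE; edgeR adjusted p = 0.0191) rested on overlapping groups, with 118, 121 and 136 CPM in dex germ and 139, 151 and 133 CPM in dex somatic libraries. The adjusted p was 0.140 with DESeq2 size factors, and the call was among others lost without dex germ replicate 1, dex germ replicate 2 or dex somatic replicate 2 (log2 fold changes -0.18, -0.20 and -0.21). The widest difference belonged to Gstm2, at -8.11 ± 0.15 (SE; edgeR adjusted p = 1.40e-12). Gpx3 differed by -2.61 ± 0.081 and Dpep1 by -6.46 ± 0.20 on the log2 scale in dex, compared with -1.06 and -4.74 in saline. These germ against somatic comparisons use the same libraries as the dex comparisons below, whose results were known when the members were chosen. The p-values of members in dex animals are therefore given as a description.

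In somatic cells the secreted peroxidase and the dipeptidase were higher in dex than in saline. Gpx3 and Dpep1 were the 2 of 10 members called, both higher, where 3.91% of the 16766 genes tested were called. Because the members were chosen with this contrast known, nothing is read from that count. Dpep1 had 13.3, 11.00 and 9.39 CPM in the saline somatic libraries and 74.6, 84.9 and 67.0 CPM in the dex somatic libraries. The lowest dex library was above every saline library, and the log2 fold change was 2.78 ± 0.15 (SE), a 6.88-fold level. Gpx3 had 71.1, 71.9 and 67.9 CPM in saline and 245, 262 and 239 CPM in dex somatic libraries. The groups again lay far apart, with a log2 fold change of 1.86 ± 0.080 (SE), a 3.62-fold level. With that, Gpx3 passed from place 8 to place 4 among the members by FPKM in somatic cells, and Dpep1 passed above Ggt5.

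The windows before the starts of these 2 genes are shown because both genes were called higher in somatic cells. They were taken from RefSeq on GRCm38.p6, read 5′ to 3′ on the gene's strand, and capitals mark TGTTCT or its reverse complement, the half-site that the glucocorticoid receptor binds. The Dpep1 window, chr8:123185985-123186234 on the plus strand, holds the 250 bases before the start and no capitals. The Gpx3 window was cut to the 168 bases outside annotated exons, chr11:54902604-54902771 on the plus strand, and holds TGTTCT with its first base 133 bases before the RefSeq start. On GRCm38 the Dpep1 gene spans chr8:123186242-123201812 and the Gpx3 gene chr11:54902453-54910377, so that the Gpx3 window lies inside the annotated gene, past its earliest annotated start.
Dpep1: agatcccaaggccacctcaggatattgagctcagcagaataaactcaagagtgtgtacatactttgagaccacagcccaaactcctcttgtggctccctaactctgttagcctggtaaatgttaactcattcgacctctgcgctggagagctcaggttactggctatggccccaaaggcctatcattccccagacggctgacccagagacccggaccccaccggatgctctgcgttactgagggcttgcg
Gpx3: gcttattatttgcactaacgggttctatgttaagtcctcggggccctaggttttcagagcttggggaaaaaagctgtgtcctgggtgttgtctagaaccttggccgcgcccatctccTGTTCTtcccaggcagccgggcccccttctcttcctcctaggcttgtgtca

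RefSeq windows matched 8 of the 10 members, with 12 windows of 250 bases in all. Gsta4 and Ggt5 had none. TGTTCT, searched on both strands, was present in 2 of the 12 windows, those of Gpx3 and Gstm1, and in 16.1% of 32851 windows of the same length. TGACNNNGC, the core of the antioxidant response element bound by NRF2, was searched likewise and was present in 0 of the 12 windows and in 10.2% of all windows. These are letter matches in short windows and say nothing of binding.

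The other members differed little between dex and saline in somatic cells. Gpx7 had 69.0, 67.9 and 68.5 CPM in saline and 78.5, 98.1 and 76.0 CPM in dex, without overlap but not called (log2 fold change 0.33 ± 0.11, SE). Ggt5 had 43.1, 52.7 and 38.1 CPM in saline and 51.7, 57.1 and 55.8 CPM in dex, with overlap and not called (log2 fold change 0.34 ± 0.12, SE). The 6 others had log2 fold changes between -0.11 and 0.27 with overlapping groups. The leading pair stayed in place, with Gstm1 at 1914, 1586 and 1937 CPM in saline and 1635, 1694 and 1742 CPM in dex, and Gstm2 at 1294, 1229.6 and 1396 CPM in saline and 1230.1, 1086 and 1240.2 CPM in dex. With Gpx3 higher, the peroxidases' part of the members' summed FPKM in somatic cells was 18.7% ± 1.03 in dex against 13.3% ± 0.485 in saline (SD, n = 3).

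Markers of cell types within the somatic sort also differed between dex and saline. All 7 peritubular and stromal cell markers were higher and 5 of them were called, among them Des, Col1a1 and Dcn. Their sum ranged from 5077 to 6750 CPM in saline and from 8343 to 9716 CPM in dex somatic libraries. Of the 6 macrophage markers 3 were called lower, with a sum of 39.3 to 68.2 CPM in saline and 18.54 to 23.6 CPM in dex. Of the 4 erythroid markers tested 2 were called lower, Hbb-bs and Hbb-bt, with a sum of 248 to 388 CPM in saline and 82.7 to 292 CPM in dex. Also called lower were 1 of 5 Leydig cell markers, Star, and 1 of 5 endothelial cell markers, Tek. The Leydig cell markers summed to 116 to 194 CPM in saline and 83.3 to 168 CPM in dex. The endothelial cell markers summed to 242 to 279 CPM in saline and 243 to 314 CPM in dex. Of these 5, 4 had lower values in dex, with a median log2 fold change of -0.49. Cdh5, the 1 with a higher value, had a mean of 215 CPM of the mean sum of 259 CPM in saline. None of the 7 Sertoli cell markers was called, 1 of them had an unadjusted p under 0.05 in edgeR, and their sum ranged from 5010 to 5386 CPM in saline and from 4913 to 5586 CPM in dex. In bulk RNA, more cells of a type and more RNA per cell cannot be told apart, and the part of cell composition in the values of Dpep1 and Gpx3 was not tested.

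**Figure D3:**
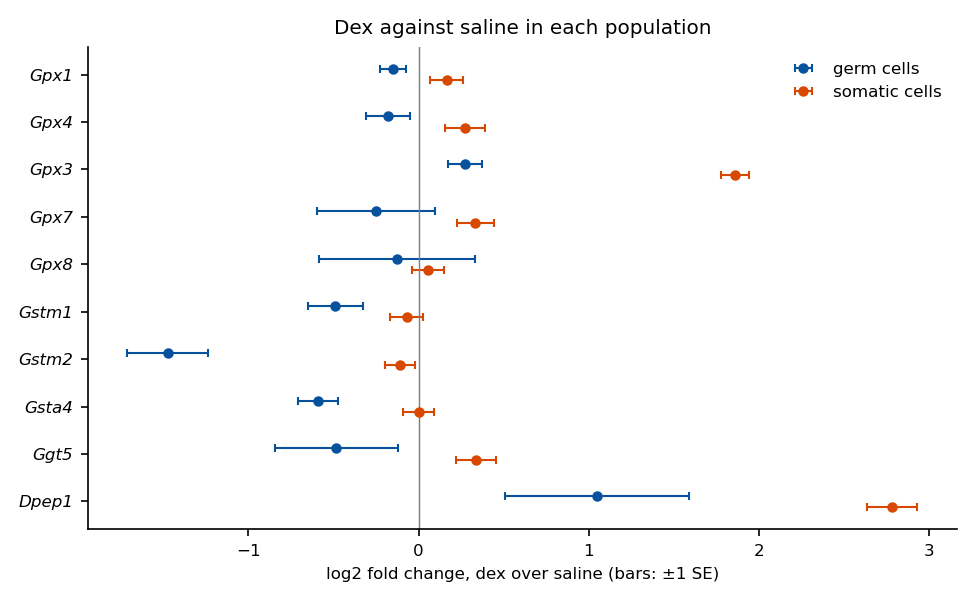
Log2 fold change of dex over saline for the 10 members in germ cells (blue) and somatic cells (orange), with bars of 1 SE from 3 against 3 libraries. Dpep1 at 2.78 and Gpx3 at 1.86 stand to the right in somatic cells, and Gstm2 at -1.47 and Gsta4 at -0.59 stand to the left in germ cells.

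In germ cells the transferases among the members had lower values in dex than in saline. Gstm2 and Gsta4 were the 2 of 10 members called, both lower, where 1.25% of the 18550 genes tested were called, and again nothing is read from that count. Gstm2 had 9.89, 16.9 and 10.9 CPM in the saline germ libraries and 5.36, 3.53 and 4.78 CPM in the dex germ libraries, with no overlap. Its log2 fold change was -1.47 ± 0.24 (SE), a level of 0.360 times that in saline. Gsta4 had 37.7, 44.4 and 45.6 CPM in saline and 25.6, 31.7 and 27.9 CPM in dex, also with no overlap, a log2 fold change of -0.59 ± 0.12 (SE). The Gsta4 call was lost without any 1 of 5 germ libraries, with log2 fold changes between -0.67 and -0.53, and it was kept only without dex germ replicate 2. On log2(FPKM + 0.1) with limma neither gene was called, with log2 fold changes of -1.40 for Gstm2 and -0.57 for Gsta4. Gstm1 had 22.2, 30.3 and 22.3 CPM in saline and 18.47, 14.7 and 20.5 CPM in dex. These groups did not overlap either, but Gstm1 was not called (log2 fold change -0.49 ± 0.16, SE). It was called under 1 of 14 alternatives.

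Both mu-class neighbours on chromosome 3 had lower values in dex than in saline germ cells, by different amounts, and only Gstm2 was called. The window of each is shown for that reason, both on the minus strand (Gstm1 chr3:108012255-108017973, Gstm2 chr3:107981702-107986453 on GRCm38). For Gstm1 it is chr3:108017974-108018223, the 250 bases before the earlier of its RefSeq starts, and for Gstm2 it is chr3:107986454-107986670, the 217 bases outside annotated exons. The capitals mark the same 6 letters on either strand. The Gstm1 window holds them at 217 and 202 bases before the start, in opposite orientation, and the Gstm2 stretch does not hold them.
Gstm1: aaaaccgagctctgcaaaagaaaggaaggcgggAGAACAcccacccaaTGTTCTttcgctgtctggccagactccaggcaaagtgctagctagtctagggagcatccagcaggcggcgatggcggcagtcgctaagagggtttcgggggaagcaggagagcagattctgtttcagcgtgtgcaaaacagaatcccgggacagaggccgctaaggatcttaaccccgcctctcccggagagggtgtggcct
Gstm2: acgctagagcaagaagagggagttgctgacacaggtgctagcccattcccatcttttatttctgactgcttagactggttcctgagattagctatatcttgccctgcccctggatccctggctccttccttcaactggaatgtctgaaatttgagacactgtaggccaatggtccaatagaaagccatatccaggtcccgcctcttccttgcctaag

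The ratio of Gstm1 to Gstm2 in FPKM followed from these values. It ranged from 1.47 to 1.69 in saline somatic and from 1.51 to 1.78 in dex somatic libraries. In germ cells it ranged from 2.04 to 2.56 in saline and from 3.93 to 4.89 in dex, above every somatic library in both treatments. A stretch of 64 bases is used here as a measure of shared sequence: 14.4% of such stretches in Gstm1 transcripts and 3.15% of those in Gstm2 transcripts also occurred in another annotated gene, so that some reads of this pair may be counted elsewhere.

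**Figure D4:**
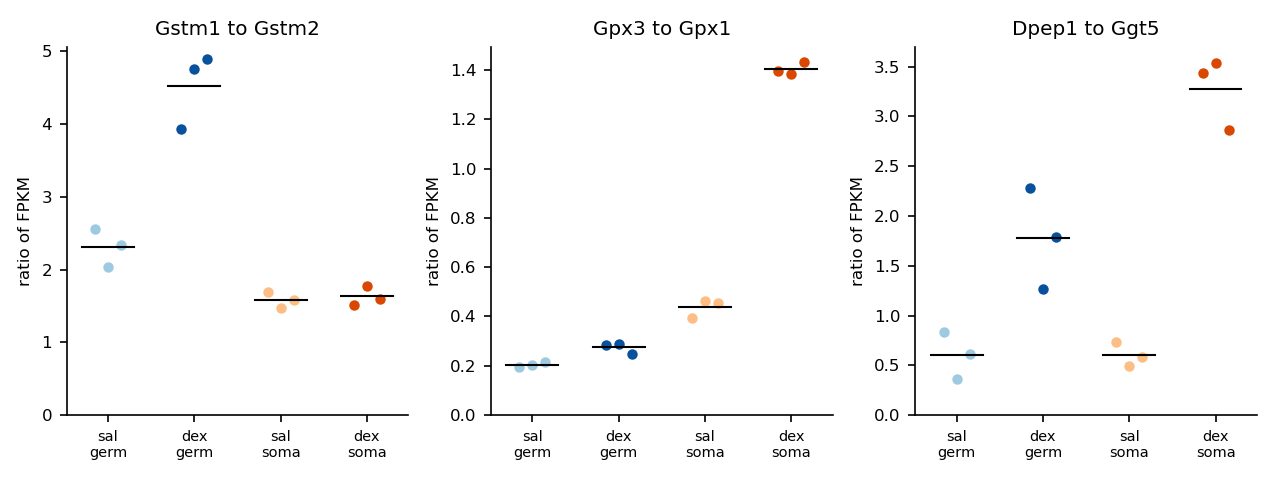
Ratios of FPKM between pairs of members in each library (points) with the mean of 3 libraries (lines), for saline (sal) and dex germ and somatic (soma) groups, on linear axes from 0. Gstm1 to Gstm2 is highest in dex germ libraries at 3.93 to 4.89, and Gpx3 to Gpx1 is highest in dex somatic libraries at 1.38 to 1.43.

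The remaining members were not called in germ cells. Gpx3 had 33.8, 34.1 and 37.9 CPM in saline and 42.4, 43.8 and 42.5 CPM in dex germ libraries, higher without overlap (log2 fold change 0.27 ± 0.10, SE). Dpep1 had 13, 5 and 9 counts in saline and 23, 17 and 21 counts in dex germ libraries, higher without overlap (log2 fold change 1.05 ± 0.54, SE). Both genes that were called higher in somatic cells thus had higher values in germ cells too, where the counts of Dpep1 were low. The germ level of Dpep1 was 3.81% of its somatic level in saline and 1.21% in dex. That of Gpx3 was 50.2% in saline and 17.2% in dex. In dex the summed Sertoli cell markers were at 0.931% and the peritubular and stromal cell markers at 1.32%. The part of residual somatic RNA in the germ values of Dpep1 and Gpx3 was not tested. Ggt5 had 37, 33 and 35 counts in saline and 24, 32 and 28 counts in dex, lower without overlap (log2 fold change -0.48 ± 0.36, SE). Gpx1, Gpx4, Gpx7 and Gpx8 had log2 fold changes between -0.25 and -0.13 with overlapping groups.

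Gpx4 carries an uncertainty of its own. Of the 64-base stretches of its transcripts 31.9% also occurred in the pseudogene Gpx4-ps2, whose counts came to 16.7% to 29.5% of those of Gpx4 across the 12 libraries. When the counts of Gpx4-ps2 were added to Gpx4, a choice made after seeing the data, the dex over saline log2 value was -0.14 in germ cells, against -0.18 without them, and 0.27 in somatic cells, as without them.

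Markers of somatic cell types in the germ sort were set beside these values. All 7 Sertoli cell markers had values below saline in dex germ libraries, with a median log2 fold change of -0.51. None was called, and 4 of 7 had an unadjusted p under 0.05 in edgeR. Their sum ranged from 61.6 to 76.2 CPM in saline and from 41.6 to 53.7 CPM in dex germ libraries. The 4 Leydig cell markers tested had a median log2 fold change of -0.74, whereas the 7 peritubular and stromal cell markers had 0.06 with sums of 106 to 133 CPM in saline and 117 to 123 CPM in dex. The 6 macrophage markers summed to 9.49 to 13.4 CPM in saline and 15.4 to 17.7 CPM in dex, higher without overlap. Of the 3 tested, only Mrc1 was higher, with means of 6.27 CPM in saline and 11.7 CPM in dex. The other 2 were lower, and none was called. The 5 endothelial cell markers summed to 69.6 to 77.7 CPM in saline and 68.0 to 82.6 CPM in dex, with 4 of the 5 lower in dex. The 5 erythroid markers summed to 7.70 to 9.22 CPM in saline and 4.44 to 7.06 CPM in dex. Gstm2 in germ cells was at 0.961% of its somatic level in saline and at 0.384% in dex, while the Sertoli cell markers were at 1.32% and 0.931%. The part of residual somatic RNA in the germ differences of Gstm2, Gstm1, Gsta4, Dpep1 and Gpx3 was not tested.

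The difference between the dex effects, germ minus somatic, was fitted over all 12 libraries. It was called for 2 of 10 members, Gpx3 and Gstm2, both negative, where 0.827% of the 20551 genes tested were called, and nothing is read from that count because the members were chosen with the dex results known. For Gpx3 it was -1.55 ± 0.11 on the log2 scale (SE), from 0.27 in germ and 1.86 in somatic cells. For Gstm2 it was -1.33 ± 0.23 (SE), from -1.47 in germ and -0.11 in somatic cells. Dpep1 had -1.73 ± 0.42 and Gsta4 -0.56 ± 0.14 (SE), not called here but called by DESeq2. Of 19 alternatives, Dpep1 was called in 5 and Gsta4 in 2. The 10 differences were all negative, between -1.73 and -0.16, with a median of -0.55 against 0.03 over all genes tested, a direction that the choice of members can set by itself. That of Gpx8 turned positive, to 0.05 and 0.10, without dex germ replicate 2 or saline germ replicate 2.

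The other genes of glutathione metabolism were counted from 7 lists holding 67 genes besides the members. Few of them passed the threshold for dex against saline. The members had been set apart from these lists with the dex results known. Nothing is therefore read from the dex counts that follow, and the adjusted p of single genes is given as a description. In somatic cells 1 of 55 tested was called, the alpha-class transferase Gsta2, with 29.1, 34.3 and 32.6 CPM in saline and 10.9, 20.5 and 10.5 CPM in dex (log2 fold change -1.16 ± 0.21, SE; edgeR adjusted p = 0.00429). The Gsta2 call was lost with limma on log2(FPKM + 0.1), with an adjusted p of 0.0602. In germ cells 1 of 56 tested was called, the thioredoxin reductase Txnrd1, with 136, 147 and 138 CPM in saline and 104, 119 and 112 CPM in dex (log2 fold change -0.34 ± 0.076, SE; edgeR adjusted p = 0.0449). The Txnrd1 call was lost in 10 of 14 alternatives, among them without any 1 of 5 germ libraries, all but dex germ replicate 2, at log2 fold changes between -0.36 and -0.30. The background shares were those given above for each comparison, 3.91% and 1.25%. The difference between the dex effects was called by edgeR for 0 of 59 tested, with 9 at an unadjusted p under 0.05. DESeq2 and limma also called 0, and edgeR without a filter on low counts called 1.

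Between the cell populations of saline animals the same lists were counted. Of 58 genes tested 51 were called, 24 higher and 27 lower in germ cells, where 76.5% of all genes tested were called, 7512 of them higher and 6929 lower. In dex animals 48 of 57 were called, 24 higher and 24 lower, where 76.3% of all genes were called. Against that background a call alone says little about a list. All 4 genes of glutathione synthesis were called higher in germ cells, opposite to the members. Gclc, the catalytic subunit of the rate-limiting ligase, had 177, 181 and 188 CPM in germ and 19.8, 23.6 and 19.2 CPM in somatic libraries (log2 fold change 3.06 ± 0.098, SE; edgeR adjusted p = 6.44e-11). Its regulatory subunit Gclm had a log2 fold change of 1.81 ± 0.12 (SE; edgeR adjusted p = 4.57e-08), and the synthetase Gss had 0.52 ± 0.15 (SE; edgeR adjusted p = 0.00655), a call lost without saline somatic replicate 1 (log2 fold change 0.35). The fourth gene of the list was Slc7a11, the cystine carrier.

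In the recycling list 4 of 8 genes were called higher and 4 lower. The glutathione reductase Gsr had 280.4, 287 and 354 CPM in germ and 60.0, 71.3 and 60.8 CPM in somatic libraries (log2 fold change 2.20 ± 0.11, SE; edgeR adjusted p = 2.37e-09). The glutaredoxin Glrx was lower in germ cells, with 1.29, 1.33 and 2.00 CPM against 17.8, 20.3 and 22.2 CPM (log2 fold change -3.76 ± 0.23, SE), and Glrx2, its mitochondrial relative, had a log2 fold change of -1.15 ± 0.20 (SE; edgeR adjusted p = 0.000221).

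Of the other transferases 22 of 26 were tested, 4 were called higher and 15 lower in germ cells. Gsta2, the microsomal transferase Mgst1 and the mu-class Gstm7 had log2 fold changes of -6.74 ± 0.22, -6.32 ± 0.16 and -5.62 ± 0.18 (SE), of the size of Gstm1 and Gstm2. The mu-class Gstm5, not a member, was on the other side. It had a mean of 126 CPM (98.5 FPKM) in saline germ and 54.0 CPM (40.5 FPKM) in saline somatic cells. The only other peroxidase tested, Prdx6, was called lower (log2 fold change -0.88 ± 0.083, SE).

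Of the breakdown and export list 11 of 13 genes were tested, 6 called higher and 3 lower. The dipeptidase Dpep3, a relative of Dpep1, had 57.7, 61.6 and 66.0 CPM in germ libraries and 3, 0 and 10 counts in somatic libraries (log2 fold change 8.15 ± 0.36, SE; edgeR adjusted p = 9.72e-10). Dpep1 and Dpep3 thus marked opposite populations. The exporter Abcc4 had a log2 fold change of 6.60 ± 0.17 and Ggt7 of 3.38 ± 0.15 (SE), against -4.77 for Ggt5.

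Among NRF2 and its targets 2 genes were called higher and 3 lower of 6 tested. Heme oxygenase Hmox1 was higher (log2 fold change 2.13 ± 0.15, SE), and the NRF2 inhibitor Keap1 (-2.14 ± 0.14) and the quinone reductase Nqo1 (-1.55 ± 0.21) were lower in germ cells. Of the 6 genes for selenoprotein synthesis, on which Gpx1, Gpx3 and Gpx4 depend for their selenocysteine, 4 were called higher and 1 lower, with log2 fold changes between -0.80 and 0.58.

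**Figure D5:**
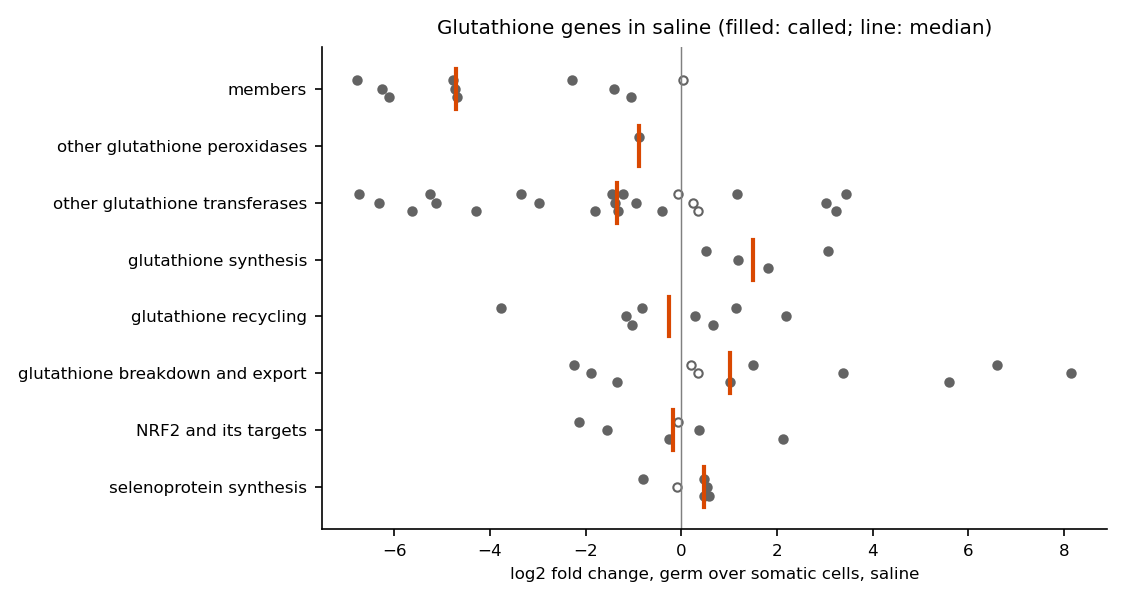
Log2 fold change of saline germ over saline somatic cells for the 10 members and for the tested genes of 7 other lists, with a point per gene (filled where called), an orange line at each list's median, and vertical offsets only to separate points. The members' median lies at -4.71 and that of the 4 synthesis genes at 1.499.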

How the data were processed

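Bulk RNA-seq of sorted newborn testis cells was analysed from 2 tables. The authors aligned reads to mm10 with HISAT2 2.0.5 and counted them per gene with featureCounts 1.5.0-p3, and the deposited counts are raw and not normalized. The deposited FPKM values were made by the authors from those counts and gene length. The authors' DESeq2 1.20.0 tables of dex against saline hold fold changes and p-values and were not used. The gene annotation used for counting and its strand setting are not given in the sources used here. Groups and replicate numbers came from the sample labels.

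The members and the gene lists were chosen with earlier results of these data known. Counts were fitted with edgeR 4.0.16 in R 4.3.3 (quasi-likelihood test, TMM, filterByExpr at a minimum count of 10, two-sided, Benjamini-Hochberg over all genes tested, called at 0.05 or less). The 6 libraries concerned were fitted alone, and all 12 for the difference of dex effects. SE is the log2 fold change divided by the square root of F. CPM used TMM over 12 libraries. The fit was tested on simulated data. Alternatives were DESeq2 size factors, library totals, no filter, DESeq2 1.42.0, limma 3.58.1 on log2(FPKM + 0.1) and log2(FPKM + 1), each library left out, a replicate block, and all 12 libraries in 1 fit. No 2 libraries were copies of each other. P-values measure the spread between these pooled replicates. The floor of 3 counts covers counting error only.

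The text names all 10 members, and of each list up to 3 genes with the largest absolute log2 fold change among those called whose average log2 CPM was 2 or more. For Dpep1 and Gstm2 the rule also names the 3 protein-coding genes with the highest Pearson r of log2 CPM, of which 1 is not reported here. Slc7a11, Gstm5 and the marker genes were named after their values were seen. Dpep2 has 2 records in the table and the first was used. Coordinates of the 10 members were the same in GENCODE M21 (GRCm38), and no member shared exon bases with another gene.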

Additional observations from a re-analysis of the deposited data

Results flagged for a closer look

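The difference between the dex effects of germ and somatic cells, fitted over 12 libraries, passed the threshold for 2 members. For Gpx3 the difference, germ minus somatic, was -1.55 on the log2 scale. For Gstm2 it was -1.33. Both genes were chosen with the dex results known, so these values are a description and not evidence of a difference. The levels of Gpx3 diverged through the somatic libraries (67.9 to 71.9 CPM in saline, 239 to 262 CPM in dex) and those of Gstm2 through the germ libraries (9.89 to 16.9 CPM in saline, 3.53 to 5.36 CPM in dex). The germ level of Gstm2 was below 1% of its somatic level in both treatments, and the part of residual somatic RNA in it was not tested.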

How the results depend on the processing

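The number of members called for dex against saline was 2 in somatic cells under all 14 alternatives. In germ cells it was 2 and fell to 0 with limma on either FPKM scale and to 1 with the replicate block. It rose to 3 under 1 alternative, with Gstm1 added, and ranged from 1 to 2 when single libraries were left out. For the difference of dex effects it was 2 and came to 4 without a filter on low counts and with DESeq2, Dpep1 and Gsta4 being added, and the Gstm2 call was lost with limma on either FPKM scale. The number did not fall below 2 under any of 19 alternatives, and Dpep1 was called in 5 of them. For germ against somatic cells it was 9 in saline under every alternative and 9 or 10 in dex. Of the members' log2 fold changes under alternatives, 710 kept direction and side of the threshold, 21 lost a call, 8 gained one and 16 changed sign. All sign changes were of uncalled values near 0, and the cause was not tested. Leaving out single libraries, dex against saline in germ cells ranged from -0.41 to 0.17 for Gpx8 (0.068 without dex germ replicate 2, 0.17 without saline germ replicate 2) and from -0.69 to 0.0080 for Gpx7. In somatic cells Gpx8 came to -0.0026 with library totals, and Gsta4 to -0.058 with library totals, -0.0034 without a filter and -0.024 with all 12 libraries, and ranged from -0.094 to 0.060 without single libraries. Gpx1 between the populations in saline ranged from -0.028 to 0.079, and the difference of dex effects for Gpx8 from -0.45 to 0.10, without single libraries. The other pathway genes called numbered 0 to 4 in germ cells and 0 to 2 in somatic cells for dex against saline, against 1 in each. With log2(FPKM + 1) the saline germ against somatic difference of Dpep1 shrank to -2.18 and that of Ggt5 to -2.66, which follows from adding 1 to values below 1.

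Same-numbered libraries deviated from their group means with correlations between -0.088 and 0.045 over all pairwise comparisons. The labels do not say that numbers pair libraries, and the main fits did not pair them. Between saline germ and somatic libraries same-numbered pairs had 0.037 to 0.045 and other pairs -0.029 to -0.0086. There all 6 libraries were closest to their own number, a hint from the data only. Beside Gsta4 in germ cells, the block changed no member's call. Counts of 5 to 23 limit Dpep1 in germ cells.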

Other observations

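The protein-coding genes whose log2 CPM followed that of Dpep1 most closely over the 12 libraries, among 11473 compared, were Cacng7 (Pearson r = 0.990), Acaa2, a mitochondrial thiolase of fatty acid oxidation (r = 0.989), and Eno1b (r = 0.987). Acaa2 had 184 ± 6.28 CPM in saline somatic and 349 ± 13.4 CPM in dex somatic cells, and 39.1 ± 5.29 CPM in saline germ and 49.9 ± 2.71 CPM in dex germ cells (SD, n = 3). Among the genes closest to Gstm2 were Wnt6, a Wnt ligand (r = 0.999), and Aldh1a1, a retinaldehyde dehydrogenase (r = 0.999). Aldh1a1 had 11.1 ± 2.43 CPM in saline germ and 5.12 ± 1.84 CPM in dex germ cells, and 1123 ± 18.2 CPM in saline somatic and 871 ± 23.7 CPM in dex somatic cells (SD, n = 3). Wnt6 had 3.86 ± 1.09 CPM in saline germ and 1.79 ± 0.229 CPM in dex germ cells, with 356 CPM in both somatic groups. All points share the same 4 groups, so that the germ against somatic difference sets most of each correlation, and they are given as a description.

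The ratio of Dpep1 to Ggt5 in FPKM, over the membrane enzymes that act in sequence on extracellular glutathione, ranged from 0.497 to 0.734 in saline somatic and from 2.86 to 3.54 in dex somatic libraries. In germ libraries it ranged from 0.361 to 0.837 in saline and from 1.27 to 2.28 in dex, where both genes had few counts.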
